A study of Mus musculus with 10 samples.

Results

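Chemokines are small secreted proteins that make leukocytes move, and they are named CC or CXC after the spacing of their first conserved cysteines. They bind G protein-coupled receptors on leukocytes, on glia and on vessel cells, and are held on cell surfaces by heparan sulfate. In nervous tissue some are made at rest, such as Cxcl12, while others, such as Ccl2 and Cxcl10, are induced in astrocytes, microglia and endothelium by cytokines. The 10 genes described here are Cxcl10, Cxcl12, Cxcl16, Cxcl1, Cxcl2, Ccl2, Ccl3, Ccl4, Ccl5 and Ccl7. Their probe sets were taken wherever the array's annotation gave exactly one of these symbols, which found 12 of 22690 probe sets and all 10 genes, out of 12393 genes with a probe set of a single symbol. Cxcl12 and Cxcl16 had 2 probe sets and the other genes 1 each.

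The tissue was the optic nerve head, where ganglion cell axons leave the eye, of male C57Bl/6 mice 6 to 8 weeks old. In the elevated pressure group the right eye was held at 30 mmHg for 1 h by a cannula in the front chamber, and tissue was collected 3 days later. The control group was the left eye of the same animals, which had no surgery, so pressure cannot be told apart from side and cannulation. Each of the 10 arrays, 5 in each group, carried RNA amplified from 2 pooled nerve heads, and 10 mice were used. The labels give the pools as separate biological replicates.

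Astrocyte and myelin markers were bright on every array: Gfap, the astrocyte filament gene, was never below a signal of 10644, and Mbp, a myelin protein gene, was never below 13490.3. Leukocyte markers varied between arrays of a group. The summed signal of the 9 measured of 10 neutrophil markers, among which S100a8 and S100a9 were on average the brightest, ran from 659 to 5988 in control and from 775 to 4426 in elevated pressure tissue, and the 9 measured of 10 T and NK cell markers summed to between 551 and 1117 and between 740.3 and 1148. None was listed at 0. Elevated pressure replicate 1 stood apart, as its correlation with the rest averaged 0.974, where no other array was under 0.986, and it had a Gapdh 3' to 5' control ratio of 2.07 against 1.53 to 1.73. By the same ratio for Actb it did not stand apart, at 2.10 against 1.65 to 2.13. In pooled tissue, fewer cells of a type and less RNA in each cell cannot be told apart.

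Across all genes 0% differed between the groups at a limma adjusted p under 0.05, and 0 of the 10 chemokines did. With an unadjusted p below 0.05 there was 1 of 10 chemokines, Cxcl10, where 3.97% of all genes passed, 1.32% in the lower direction that Cxcl10 had. The groups overlapped in all 10 chemokines, and did not overlap in 0.629% of all genes. Of the 10, 5 had a log2 fold change above 0 and 5 below it, as did 52.7% of all genes, with a median of -0.03, against -0.01 over all genes. A log2 difference of 0.3 or more in either direction was seen in 3 of 10 chemokines and in 9.96% of all genes. In 6 of the 10, and in 95.5% of all genes, neither end of the 95% confidence interval reached 2-fold on the log2 scale used. For Cxcl10, Cxcl1, Ccl2 and Ccl7 the interval did reach 2-fold, so these arrays leave room for a change of that size. The scale adds a constant to each signal before the log, which understates changes of dim genes. A 2-fold change in signal is therefore not excluded for the dim Ccl3 (interval -0.93 to 0.49) and Ccl4 (-0.80 to 0.90) either.

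**Figure D1:**
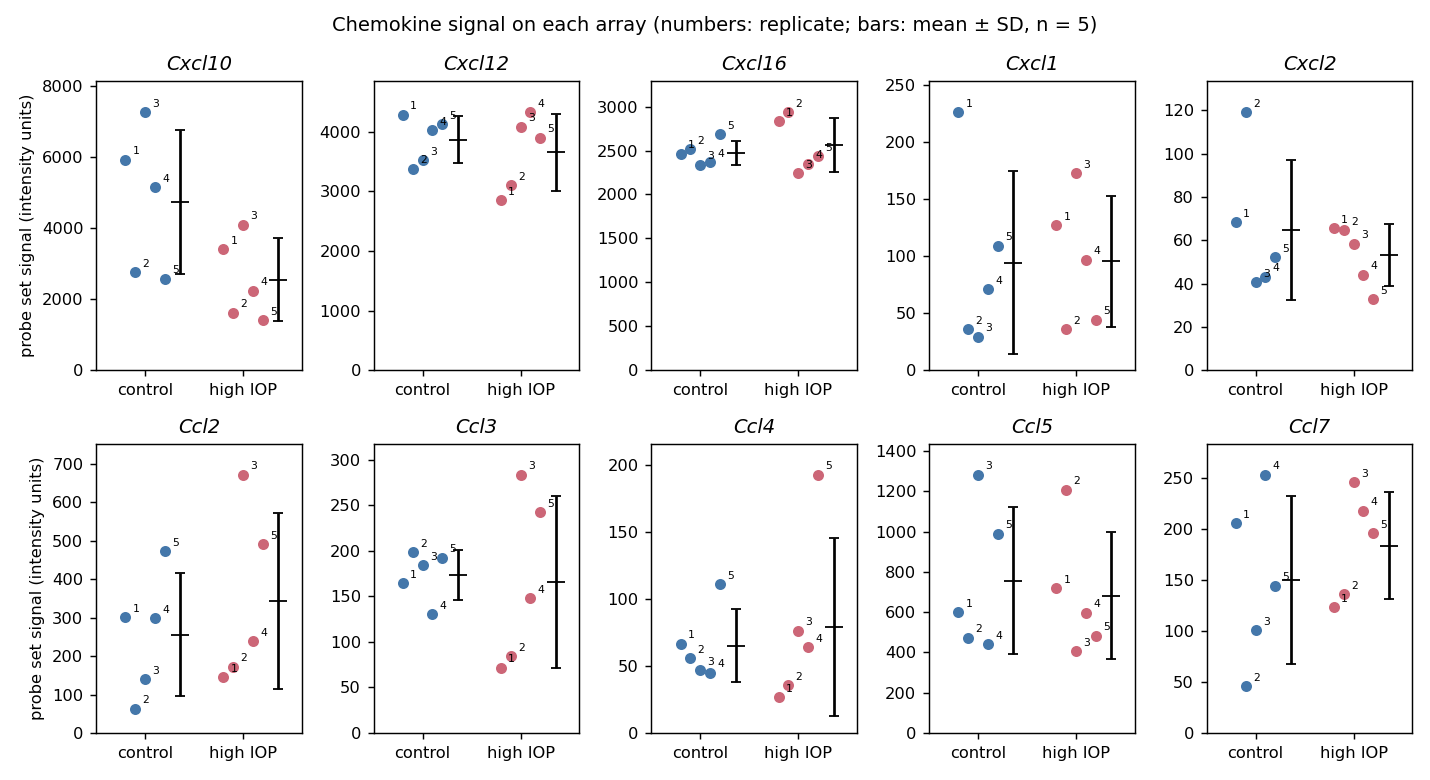
Probe set signal (linear intensity units, axes from 0) of the 10 chemokines on each array, with control pools in blue, elevated pressure (high IOP) pools in red, replicate numbers beside the points and bars for the mean ± SD (n = 5). The groups overlap in every panel, with Cxcl10 spanning 2578 to 7274 in control and 1409 to 4094 in elevated pressure tissue.

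Cxcl10, a CXCR3 ligand that interferons induce strongly and that draws activated T and NK cells, had the largest group difference of the 10 chemokines. Its signal in control replicates 1 to 5 was 5929.6, 2760.4, 7274, 5159 and 2578, and in elevated pressure replicates 1 to 5 it was 3408, 1617, 4094, 2240.2 and 1409. Control replicates 1, 3 and 4 lay above every elevated pressure array, while control replicates 2 and 5 lay among them. The log2 fold change was -0.89 with a 95% confidence interval from -1.70 to -0.08 (limma unadjusted p = 0.0343, adjusted p = 0.849), and the two-sided exact permutation p over the 252 splits of the arrays was 0.0714, where the smallest possible is 0.00794. It stood between -1.09 and -0.71 when each array was left out in turn. In 4 of these 10 fits the unadjusted p stayed under 0.05. The interval included 0 when control replicate 1, 3 or 4 was left out, and likewise elevated pressure replicate 2, 4 or 5.

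The promoter of Cxcl10 is shown because interferon and NF-kB act on this gene through known elements near its start. The sequence is the 250 bases before the annotated start in RefSeq, build GRCm38.p6, chr5:92348890-92349139, minus strand, read 5′ to 3′. Capitals mark matches, on either strand, to an interferon-stimulated response element (GAAA, any 2 bases, GAAA) and to an NF-kB element (GGG, any 3 bases, TTCC).
Cxcl10: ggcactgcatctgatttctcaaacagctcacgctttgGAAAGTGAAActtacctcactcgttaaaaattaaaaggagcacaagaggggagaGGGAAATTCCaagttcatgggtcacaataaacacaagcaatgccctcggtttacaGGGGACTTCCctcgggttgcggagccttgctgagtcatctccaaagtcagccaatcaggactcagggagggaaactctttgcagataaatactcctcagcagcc
The interferon element lay from 213 to 204 bases before the start, and the NF-kB elements from 159 to 150 and from 104 to 95. The first motif occurs in 2.98% and the second in 4.65% of 32851 RefSeq promoter windows of the same length. A match describes the letters and does not show that a factor is bound.

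Over the 10 arrays Cxcl10 ran with the interferon-induced genes, which together vary from pool to pool. The score of 21 such genes, of 26 listed, is the mean of their log2 deviations from each gene's own mean. It was 0.71, 0.53 and 0.28 in control replicates 1, 3 and 4, the arrays with the most Cxcl10, and -0.26 and -0.45 in replicates 2 and 5. In elevated pressure replicates 1 to 5 it was 0.75, -0.48, -0.44, -0.16 and -0.49. Pearson's r of Cxcl10 with the score was 0.74 (permutation p = 0.0205, adjusted p = 0.520 over 220 relations) and Spearman's rho 0.76 (permutation p = 0.0160, adjusted p = 0.427), so the relation did not pass the correction. Without the 2 arrays farthest from the median of Cxcl10 r was 0.65, and without elevated pressure replicate 1, which had a high interferon score but less Cxcl10 than 3 control arrays, it was 0.84. Within the control arrays r was 0.95 and within the elevated pressure arrays 0.48, on 5 arrays each and with no test.

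The 5 genes most like Cxcl10 by Pearson's r over the 10 arrays, out of all genes, were Tmem114 (0.93), Ifit2 (0.92), Trim30a (0.90), Creb3l3 (0.90) and Cmpk2 (0.90). Ifit2, an interferon-induced RNA-binding antiviral protein, had a control mean signal of 3594 ± 1141 and an elevated pressure mean of 2556 ± 870.5 (SD, n = 5 each). Cmpk2, an interferon-induced nucleotide kinase, had a control mean of 1742 ± 733 and an elevated pressure mean of 1090.4 ± 524 (SD, n = 5 each). Their log2 fold changes were -0.49 and -0.66 (limma adjusted p = 0.849 for both). Of the 21 interferon-induced genes all 21 had a log2 fold change below 0, with a median of -0.26, and 0 passed the test at adjusted or unadjusted p under 0.05. This direction had been seen in these arrays before the list was drawn up. Tmem114 and Creb3l3 were dim, with mean signals of 40.5 and 41.4.

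Cxcl1 and Cxcl2 are ligands of CXCR2 that recruit neutrophils, and no protein-coding gene lies between them on chromosome 5. Both promoters are shown because they share an NF-kB element. Each is the 250 bases before the start, RefSeq build GRCm38.p6, plus strand, at chr5:90890995-90891244 for Cxcl1 and chr5:90903649-90903898 for Cxcl2, with matches to the same NF-kB element on either strand in capitals.
Cxcl1: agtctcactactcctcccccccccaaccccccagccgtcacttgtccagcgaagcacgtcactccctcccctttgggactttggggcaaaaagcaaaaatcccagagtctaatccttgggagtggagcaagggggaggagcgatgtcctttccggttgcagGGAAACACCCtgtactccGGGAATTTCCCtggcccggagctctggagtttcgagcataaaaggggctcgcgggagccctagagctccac
Cxcl2: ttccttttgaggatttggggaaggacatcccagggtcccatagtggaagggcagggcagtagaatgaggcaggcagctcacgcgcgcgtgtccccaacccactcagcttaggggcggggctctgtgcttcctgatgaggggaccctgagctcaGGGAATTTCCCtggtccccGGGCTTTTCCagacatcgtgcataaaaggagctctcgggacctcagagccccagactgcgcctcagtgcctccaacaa
The longest run that both windows hold is GGGAATTTCCCTGG, 14 bases, from 71 to 58 bases before the start of Cxcl1 and from 97 to 84 before that of Cxcl2. Of the 32851 windows 2 hold it on either strand, these 2. It contains 2 overlapping NF-kB matches, and each window has 1 more, from 89 to 80 bases before the start of Cxcl1 and from 78 to 69 before that of Cxcl2. No match to the interferon element was found in either window.

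Cxcl1 signal in control replicates 1 to 5 was 226, 35.7, 29.25, 71.1 and 109, and in elevated pressure replicates 1 to 5 it was 127, 35.8, 173, 97.0 and 44.1. The span within the control group alone was 7.74-fold, and control replicate 1 lay above and control replicates 2 and 3 below all elevated pressure arrays. Its log2 fold change was 0.12 (95% confidence interval -0.97 to 1.21, limma adjusted p = 0.966). Leaving out control replicate 3 gave -0.13, control replicate 2 gave -0.08, elevated pressure replicate 3 gave -0.11 and elevated pressure replicate 1 gave -0.0084, so the sign turned each time. Leaving out control replicate 1 gave 0.48. Cxcl2 signal was 68.4, 119, 40.7, 43.1 and 52.2 in control and 65.7, 64.6, 58.3, 44.0 and 32.7 in elevated pressure tissue. Control replicate 2, the highest for Cxcl2, was among the lowest for Cxcl1. The log2 fold change of Cxcl2 was -0.17 (interval -0.70 to 0.36, limma adjusted p = 0.878), and 0.03 without control replicate 2. Over the 10 arrays r between the 2 genes was 0.06 and Spearman's rho 0.32 (permutation p = 0.869 and 0.370, adjusted p = 0.949 for r over 45 pairs).

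Cxcl1 ran with the score of a list of genes that induce chemokines or are induced beside them. The list holds cytokines such as Tnf, Il1b and Il6, NF-kB subunits and their targets, and endothelial adhesion molecules, 20 of 21 measured. The score is not scaled by gene, so widely varying genes such as Selp (within-group log2 SD 1.66) and Il1r1 (0.998) weigh most. The NF-kB subunits Rela (0.0652) and Nfkb2 (0.0806) weigh little, with Relb between (0.312), and Il6 was near the floor at a mean signal of 5.2. Which genes carried the relation was not tested. The score was highest in control replicate 1 (0.49), where Cxcl1 was highest, and lowest in control replicates 2 (-0.27) and 3 (-0.15), where Cxcl1 was among the 3 lowest. Pearson's r was 0.86 (permutation p = 7e-05, adjusted p = 0.0154 over 220 relations) and Spearman's rho 0.94 (permutation p = 0.00019, adjusted p = 0.0418). It was the only relation of the 220 between a chemokine and a list that passed the correction by either measure. Without the 2 arrays farthest from the median of Cxcl1, control replicates 1 and 3, r was 0.85, and without elevated pressure replicate 1 it was 0.86. Within the control arrays it was 0.93 and within the elevated pressure arrays 0.87. Control replicate 1 also had the highest scores of pigment cell (1.19), monocyte (0.67), neutrophil (0.55), T and NK cell (0.30) and mural cell markers (0.25). Over the arrays Cxcl1 had r = 0.75 with mural cell markers (permutation p = 0.0148, adjusted p = 0.465). With monocyte markers r was 0.67 (adjusted permutation p = 0.520) and with pigment cell markers 0.56 (0.819). Without control replicates 1 and 3 these r were 0.73, 0.29 and 0.19. With endothelial markers r was 0.58, with oligodendrocyte markers -0.58 and with microglia and macrophage markers -0.58. The part of these cells in the relation was not tested. The relations with lists were computed after the data had been seen.

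**Figure D2:**
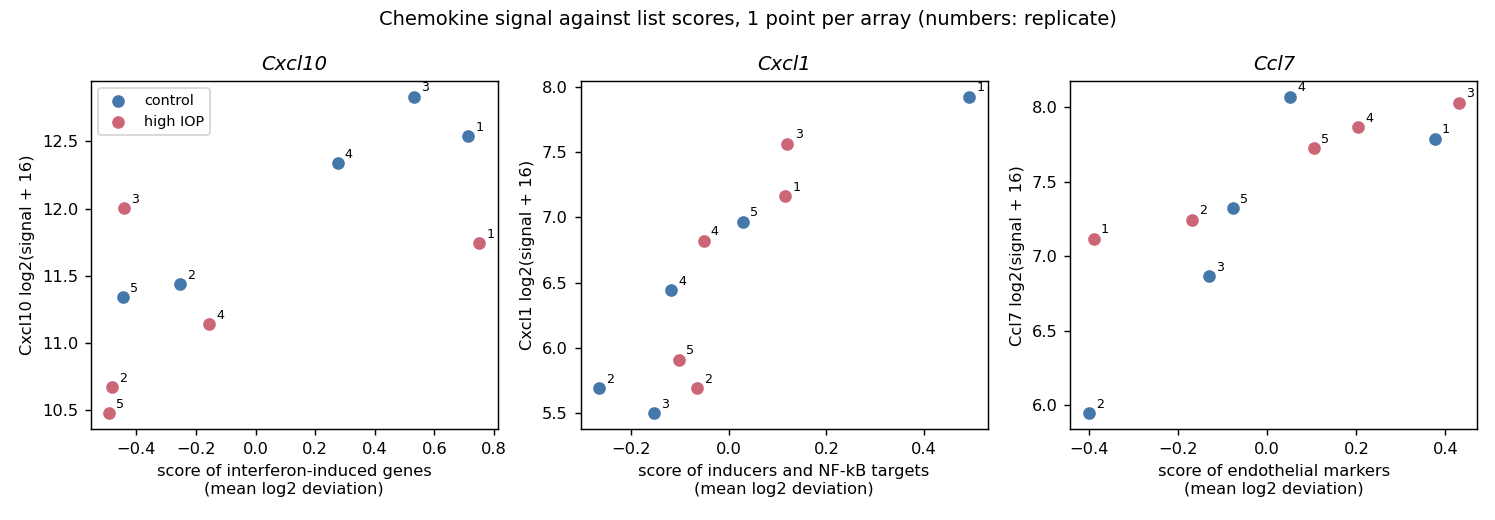
Chemokine log2(signal + 16) on the vertical axes against the score of a gene list (mean log2 deviation) on the horizontal axes, 1 point per array, control in blue and elevated pressure (high IOP) in red, with replicate numbers. Pearson's r over 10 arrays is 0.74 for Cxcl10, 0.86 for Cxcl1 and 0.81 for Ccl7, and control and elevated pressure arrays lie along the same trend in the Cxcl1 panel.

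Between the groups no gene of the inducer list passed the test. Of its 20 measured genes 13 were higher after elevated pressure, 7 were lower and 0 passed the test, adjusted or unadjusted, and the median was 0.03. The 4 with the smallest p were Irf1 (0.19), a transcription factor of interferon gamma responses, Tnfrsf1a (0.14), a TNF receptor, Relb (0.22), an NF-kB subunit, and Il1b (0.25), each at a limma adjusted p of 0.849.

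Cxcl12 and Cxcl16 had the smallest standard errors of the 10. Cxcl12 retains progenitors and lymphocytes through CXCR4 and is made by stromal and vessel cells. The brighter of its probe sets read 4288, 3381, 3523, 4024 and 4129.7 in control replicates 1 to 5 and 2855, 3103, 4084, 4332 and 3899 in elevated pressure replicates. Elevated pressure replicates 1 and 2 were the lowest of all 10 arrays, and the other 3 lay within the control range or just above it. The log2 fold change was -0.09 (interval -0.38 to 0.19, limma adjusted p = 0.878), and 0.01 by the other probe set. Without elevated pressure replicate 1 it was -0.01. Cxcl16 is a membrane-bound chemokine for CXCR6-bearing T cells and also a scavenger receptor, and Adam10 can shed it. Its brighter probe set, whose identifier ends in _s_at, a suffix for sets that can match more than 1 transcript, read 2466, 2514, 2338, 2368 and 2688 in control and 2835, 2939, 2241, 2351 and 2436 in elevated pressure tissue. Elevated pressure replicates 1 and 2, low for Cxcl12, were here the highest of all arrays. The log2 fold change was 0.04 (interval -0.16 to 0.25, limma adjusted p = 0.926), -0.0033 by the other probe set and -0.0094 without elevated pressure replicate 2.

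Cxcl12 and Cxcl16 thus ran in opposite directions over the 10 arrays (r = -0.69, permutation p = 0.0290, adjusted p = 0.267 over 45 pairs; Spearman's rho -0.49, permutation p = 0.155, adjusted p = 0.528). The relation rested on elevated pressure replicates 1 and 2, since r was -0.04 without them, and within the control arrays it was 0.28. The genes most like Cxcl12 were Mab21l1 (r = 0.96), Pacsin1 (0.95), Olfml2b (0.93), Rab27b (0.93) and Hopx (0.92). Those most like Cxcl16 were Klk10 (0.94), Upb1 (0.94), Kif21b (0.93), H2-Q2 (0.92) and Nfkbie (0.92), the last an inhibitor of NF-kB. All but Hopx (mean signal 4429) were dimmer than the median gene, from 28.4 for H2-Q2 to 480 for Olfml2b. The genes most like each were picked as the highest of all genes over 10 arrays and have no test. Ccl5, with a mean signal of 719.7 against the median of 720.7 over all genes, fell just short of the brightness set for naming such genes.

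Ccl2 and Ccl7 both act on CCR2 and draw monocytes from blood, and no protein-coding gene lies between them on chromosome 11. Ccl2 signal in control replicates 1 to 5 was 302, 63.5, 139, 299 and 474, and in elevated pressure replicates 1 to 5 it was 146, 172, 672, 239 and 492. Ccl2 had the widest range of the 10 chemokines, 10.6-fold over all arrays, and the group ranges overlapped. Control replicates 2 and 3 lay below all elevated pressure arrays, and elevated pressure replicates 3 and 5 above all control arrays. Its log2 fold change was 0.43 (standard error 0.534, limma adjusted p = 0.868) and ran from 0.05 without control replicate 2 to 0.71 without control replicate 5. Ccl7 signal was 205, 45.5, 101, 253 and 144 in control and 123, 136, 246, 218 and 196 in elevated pressure tissue. Control replicate 2 was the lowest array for both genes. The log2 fold change of Ccl7 was 0.40 (interval -0.40 to 1.20, limma adjusted p = 0.849), and 0.09 without that array.

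Of the 45 pairs of chemokines Ccl2 and Ccl7 had the highest Pearson's r, 0.82 (permutation p = 0.00356, adjusted p = 0.160) and Spearman's rho 0.73 (permutation p = 0.0201, adjusted p = 0.301). Within control arrays r was 0.84 and within elevated pressure arrays 0.84, and without control replicate 2 and elevated pressure replicate 3 it was 0.58. By Pearson's r 0 of the 45 pairs passed the correction, 8 having a permutation p under 0.05 before it. Ccl7 also ran with the 8 endothelial markers (r = 0.81, permutation p = 0.00251, adjusted p = 0.276 over 220 relations; rho = 0.83, permutation p = 0.00472), as did Cxcl12 (r = 0.82, permutation p = 0.00405, adjusted p = 0.282). Ccl2 with the same endothelial markers had r = 0.77 (permutation p = 0.0112, adjusted p = 0.409; rho = 0.81), or 0.53 without control replicate 2 and elevated pressure replicate 3. Ccl2 with the 5 measured monocyte markers had r = 0.09 (permutation p = 0.798, adjusted p = 0.995). Ccl7 also had r = 0.75 with mural cell markers, 0.67 with photoreceptor markers and 0.67 with pigment cell markers. None of these relations with marker lists passed the correction. The summed endothelial signal ran from 11776 to 17022 in control and from 15097 to 18057 in elevated pressure tissue, and its part in the values of Ccl2, Ccl7 and Cxcl12 was not tested.

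**Figure D3:**
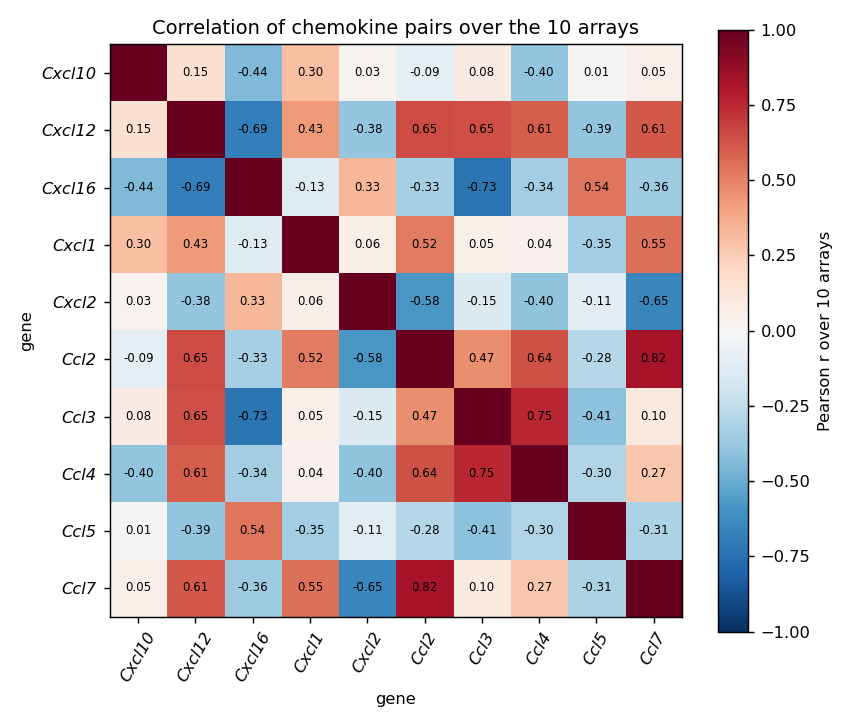
Pearson's r of log2(signal + 16) over the 10 arrays for each of the 45 pairs of chemokines, from -1 in blue to 1 in red, with the value in each cell. Ccl2 with Ccl7 (0.82) and Ccl3 with Ccl4 (0.75) are the highest, and Cxcl16 with Ccl3 (-0.73) is the lowest. For Cxcl16 with Ccl3 r is -0.13 without elevated pressure replicates 1 and 2, and 0.53 within the control arrays.

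Ccl3, Ccl4 and Ccl5 attract T cells and monocytes, the first being a product of activated microglia and the last one of T and NK cells. Ccl3 signal was 164, 198, 184, 131 and 193 in control replicates 1 to 5 and 71.7, 84.1, 284, 148 and 242 in elevated pressure replicates. Elevated pressure replicates 1 and 2 lay below all control arrays, and replicates 3 and 5 above them. The span was 1.52-fold in control and 3.95-fold in elevated pressure tissue, with a log2 fold change of -0.22 (interval -0.93 to 0.49, limma adjusted p = 0.888) that was 0.0040 without elevated pressure replicate 1. Ccl4 followed the same order in the elevated pressure group at the low end, with signals of 26.7, 35.6, 76.1, 64.1 and 192, against 66.4, 55.6, 46.6, 44.9 and 111 in control. Replicate 5 was the highest array of both groups for Ccl4. Its log2 fold change was 0.05 (interval -0.80 to 0.90, limma adjusted p = 0.984). With control replicate 3 left out it was -0.03, with control replicate 4 left out -0.04, with elevated pressure replicate 5 left out -0.29 and with elevated pressure replicate 1 left out 0.28. Ccl3 and Ccl4, which have no protein-coding gene between them, had r = 0.75 (permutation p = 0.0125, adjusted p = 0.267) and rho = 0.82 (permutation p = 0.00604, adjusted p = 0.272), with r = 0.56 without elevated pressure replicates 1 and 2.

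Ccl5 signal was 601, 472, 1283, 441 and 989 in control and 719.6, 1207, 406, 597 and 482 in elevated pressure tissue. The highest array was control replicate 3 and the next elevated pressure replicate 2, and the lowest were elevated pressure replicate 3 and control replicate 4. The log2 fold change was -0.13 (interval -0.89 to 0.64, limma adjusted p = 0.947), and it was 0.09 without control replicate 3, 0.03 without elevated pressure replicate 3 and 4.71e-05 without control replicate 5. Its correlation with the T and NK cell markers was weak (r = 0.19, permutation p = 0.599, adjusted p = 0.922 over 220 relations) and so was that with Cxcl10 (r = 0.01, permutation p = 0.974, adjusted p = 0.974 over 45 pairs).

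**Figure D4:**
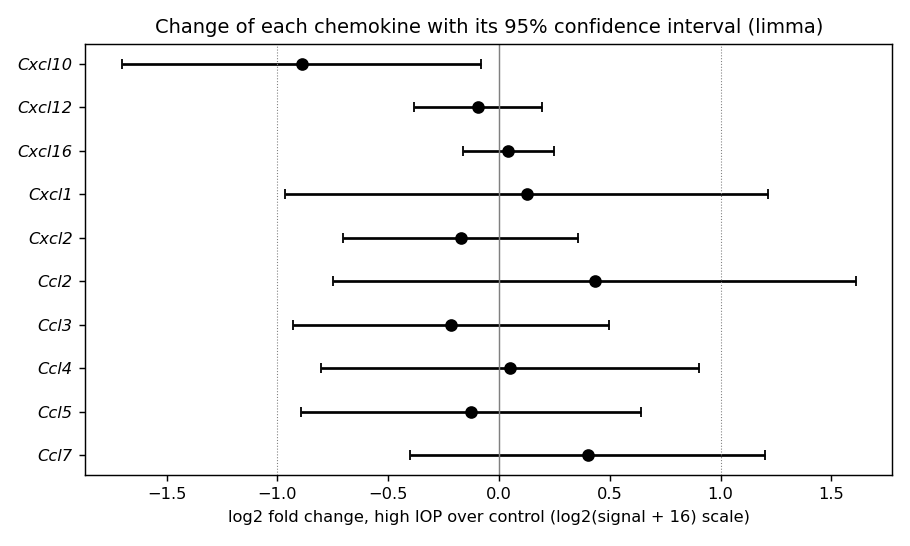
Log2 fold change of each chemokine, elevated pressure (high IOP) over control, on the log2(signal + 16) scale, with limma's 95% confidence interval as bars, a solid line at 0 and dotted lines at 2-fold. The interval of Cxcl10, from -1.70 to -0.08, is the only one of 10 that leaves out 0, and those of Cxcl12 and Cxcl16 are the narrowest.

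Most of the chemokines had a wide spread between pools of the same group. The within-group SD of each gene on the log2 scale was ranked among the 1000 genes nearest to it in mean log2 signal. Cxcl10 lay at percentile 99.5, Cxcl1 at 98.6, Ccl2 at 98.3, Ccl4 at 97.3, Ccl5 at 96.2 and Ccl7 at 92.3. Ccl3 lay at 89.5, Cxcl2 at 84.8, Cxcl12 at 80.1 and Cxcl16 at 33.1. The median percentile of the 10 was 94.3, against 49.3 over all genes, and 6 of 10 lay above 90, as did 9.76% of all genes. A wide spread was not particular to these 10 genes. Among interferon-induced genes Oas1a lay at 99.5 and Usp18 at 99.3, with Irf9 the lowest at 74.6. Among the other chemokines Cxcl9 lay at 99.9 and Ccl8 at 98.9, but Xcl1 at 5.2. Of the pigment cell markers Rpe65 lay at 99.6 and Rlbp1 at 65. Signals of leukocyte, pigment cell and photoreceptor markers also varied between these pools, and their part in the spread was not tested.

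**Figure D5:**
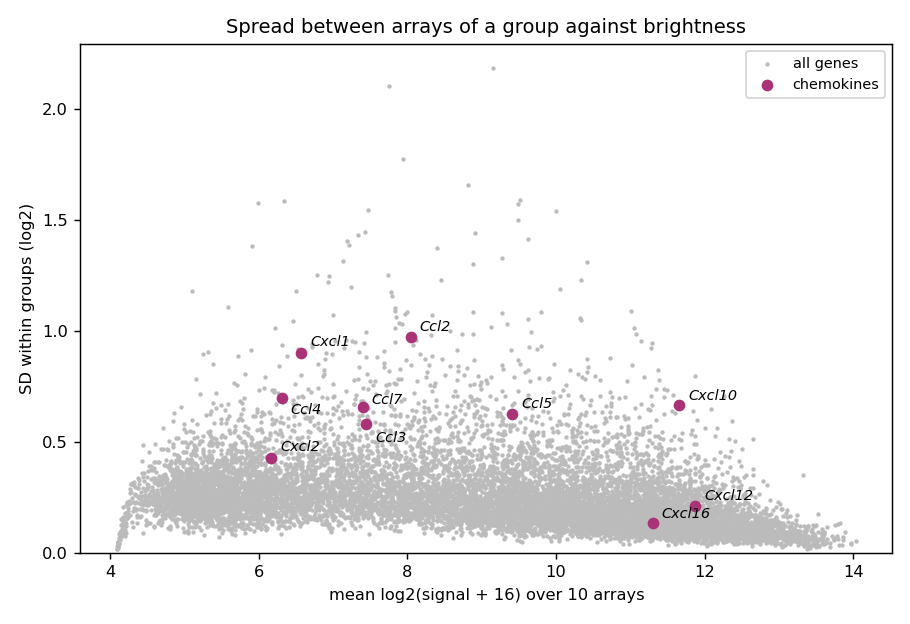
Within-group SD of log2(signal + 16) over the arrays against the mean log2(signal + 16) over 10 arrays, with all 12393 genes in grey and the 10 chemokines in purple. Cxcl10, Cxcl1 and Ccl2 lie near the upper edge of genes of like brightness, while Cxcl16, at percentile 33.1, lies inside the cloud.

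The receptors of these chemokines gave no call either. Of 12 named 10 were measured, of which 7 were higher, 3 were lower and 0 passed the test, adjusted or unadjusted. Their median was 0.06 on the log2 scale. It was -0.11 when the dimmest 50% of genes were left out, where only Cxcr4, Ackr3 and Ackr1 remained and the median was the value of Ackr3. Cxcr4, the receptor of Cxcl12, had a control mean signal of 4209 ± 365 and an elevated pressure mean of 3714 ± 1446 (SD, n = 5 each). Its log2 fold change was -0.27 (limma adjusted p = 0.849). Ackr3, which binds and clears Cxcl12, stood at -0.11. Cxcr3, the receptor of Cxcl10, had signals of 54.2 to 94.2 in control and 24.9 to 103 in elevated pressure tissue (log2 fold change 0.10), and Ccr2, the receptor of Ccl2 and Ccl7, stood at 0.19, with its other probe sets at -0.11 and -0.02. Ackr2, which clears CC chemokines, stood at 0.09, and its other probe set at 0.44. Cxcr6, the receptor of Cxcl16, stood at 0.23 (another probe set at -0.33), Ccr1, which binds Ccl3 and Ccl5, at -0.02 (another at 0.35), and Ccr3, the eosinophil receptor, at 0.02. Ackr1, an atypical receptor of venules and red cells, ranged from 832 to 4636 in control. Cxcr2, the receptor of Cxcl1 and Cxcl2, was dim, with no array above a signal of 24.3. Of the 11 other chemokine receptors 8 were higher and 3 lower, with a median of 0.05, or 0.13 without elevated pressure replicate 1. The 4 with the smallest p were Xcr1 (-0.25), Ackr4 (-0.27), Ccr4 (0.32) and Ccrl2 (0.25), each at a limma adjusted p of 0.849.

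Among 24 other chemokines measured, of 28 named, 16 were higher and 8 lower, with a median of 0.04, and 0 passed at an adjusted p under 0.05. With an unadjusted p below 0.05 there were 2, both higher, where 2.65% of all genes were higher at that level. They were Xcl1, a T and NK cell product (42.2 ± 5.90 in control, 53.9 ± 6.80 in elevated pressure tissue, SD, n = 5), and Ccl20, the CCR6 ligand (11.9 ± 4.26 and 23.0 ± 9.84, SD, n = 5), the latter close to the 16 units added before the log. Ccl8, a monocyte chemokine made by macrophages, had the largest log2 fold change of these 24, 1.06 (interval -0.04 to 2.17, limma adjusted p = 0.849), with signals of 77.5 to 549 in control and 313 to 1105 in elevated pressure tissue. Cxcl15 stood at 0.36.

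Genes that process, present or read out chemokines gave no call. Of 12 measured genes for shedding, cleavage and heparan sulfate 5 were higher and 7 lower (median -0.01). The 4 with the smallest p were Sdc4 (-0.25), a heparan sulfate proteoglycan, with another probe set at 0.20, Mmp2 (0.61), a matrix protease, Hspg2 (0.21), the perlecan core protein, and Adam10 (-0.12), with other probe sets at 0.27 and -0.52. Of 12 measured genes of receptor signalling 6 were higher and 6 lower (median -0.01). Was, an actin regulator of blood cells, stood at 0.52 and Grk6 at 0.22 (another probe set at -0.07). Pik3cg stood at -0.24 (another probe set at -0.12) and Elmo1 at -0.49 (another probe set at -0.02). Was alone of these had an unadjusted p under 0.05, as did 3.97% of all genes. In both lists 0 passed at a limma adjusted p under 0.05.

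The marker lists of cells that answer these chemokines had medians near 0. Log2 fold changes had a median of 0.03 for neutrophils (5 of 9 higher), 0.07 for monocytes (3 of 5), 0.03 for T and NK cells (5 of 9), 0.03 for B cells (2 of 4), 0.07 for mast cells (3 of 5), -0.02 for microglia and macrophages (4 of 11) and 0.03 for border macrophages (3 of 6). Of the cells that could make them, astrocytes stood at -0.05 (2 of 7), oligodendrocytes at -0.27 (0 of 6), endothelium at 0.07 (5 of 8), mural cells at 0.00115 (4 of 7) and fibroblasts at -0.0028 (3 of 7). Neighbouring tissue stood at 0.22 for photoreceptors (6 of 8), 0.0074 for pigment cells (4 of 7) and 0.23 for skeletal muscle (6 of 7). In each of these lists 0 members passed at a limma adjusted p under 0.05, and 1 microglial and 1 endothelial gene had an unadjusted p under 0.05.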

How the data were processed

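The table the authors deposited holds linear intensity values of 22690 probe sets on 10 arrays, from 0.69 to 20168. No source used here gives the background correction, summarisation or scaling. Array medians ran from 414 to 475. Values were put on the scale log2(intensity + 16), which understates changes of dim genes. Of 22626 probe sets that are not controls, 20380 had 1 symbol, 691 several and 1555 none in the platform annotation. Entrez identifiers of 20351 were found in the RefSeq table (GRCm38.p6). For each of 12393 genes the probe set with the highest mean was used.

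The groups were compared with limma 3.58.1 in R 4.3.3 (lmFit, eBayes), with Benjamini-Hochberg adjustment over all genes and a threshold of 0.05. Correlations over arrays used 100000 permutations, adjusted over 45 pairs of members and over 220 relations of a member with a list. Named by rule were all members, up to 4 genes with the smallest p of each pathway list, every receptor of a member, and the 5 genes most correlated with each member at or above the median brightness. Of 241 listed genes 216 were measured, and the others were not analysed here. Members and lists were chosen with earlier results of these data known. The p-values measure the spread between pools. Apart from the fits with a replicate block, they treat the arrays as independent, although both groups came from the same animals.

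Promoters of 5 of the 10 members were found in the RefSeq table, the other 5 being Cxcl16, Ccl2, Ccl4, Ccl5 and Ccl7. Those of Cxcl12 and Ccl3 held neither motif. On simulated data of 12393 genes, 200 drawn from all genes were changed by 0.5, 1, 1.5 or 2 on the log2 scale. The gene test recovered 40.4% of those changed by 0.5 and 82% of those changed by 1. Most of the chemokines spread more widely between pools than genes of like brightness, so these shares do not hold for them. Equal replicate numbers were not treated as pairs. The alternatives were other scalings, probe set rules, dim-gene filters, variance models, blocks and leaving out each array. The relations with lists and the values of members by replicate number were computed after the data had been seen. Correlations ran in SciPy 1.17.1 and NumPy 2.4.6 under Python 3.11.15, and plots in Matplotlib 3.10.9.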

Additional observations from a re-analysis of the deposited data

How the results depend on the processing

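Under all alternatives run 0 genes and 0 chemokines passed the limma adjusted p, and 0 of 45 pairs passed with quantile normalization, on deviations from group means or without elevated pressure replicate 1. Taking an unadjusted p below 0.05 instead gave 492 genes and 1 chemokine, and 1044 genes without elevated pressure replicate 3 and 220 genes without the dimmest 50%, where fewer were tested. At an adjusted p under 0.1 there were 0 genes. Over the single arrays left out, the log2 fold change ran from -1.09 to -0.71 for Cxcl10, -0.16 to -0.01 for Cxcl12, -0.0094 to 0.0877 for Cxcl16, -0.13 to 0.48 for Cxcl1, -0.28 to 0.0323 for Cxcl2, 0.05 to 0.71 for Ccl2, -0.44 to 0.0040 for Ccl3, -0.29 to 0.28 for Ccl4, -0.35 to 0.0926 for Ccl5 and 0.09 to 0.62 for Ccl7. With array weights Cxcl1 reversed to -0.0632; the cause was not tested. No other scaling, filter, variance model, block or probe set mean turned a chemokine's direction. For Cxcl10, Cxcl12, Ccl2 and Ccl7 no array left out did so either, though the dimmer Cxcl12 probe set had the opposite sign. Of 434 recomputed list medians 430 moved by less than the spread between arrays. The exceptions were both receptor lists, given above, and skeletal muscle (0.35 with a pseudocount of 1, 0.13 without control replicate 5). The number of arrays limits the precision, and the standard error was largest for Ccl2 (0.534) and Cxcl1 (0.494).

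The labels do not say that equal replicate numbers are the same mice. Deviations of same-numbered arrays from their group means correlated, over all genes, at -0.02, 0.21, -0.08, 0.18 and -0.06 for numbers 1 to 5. Of the 5 control arrays 2 correlated best with their own number. This cannot tell whether equal numbers share mice, since signals of cell type markers also varied between pools. As the labels leave it unsaid, the numbers were not taken as pairs. With the replicate block 0 genes passed, and 451 against 492 had an unadjusted p under 0.05. The gene with the smallest p in that fit was Cxcl10, with a log2 fold change of -0.89 and an interval from -1.13 to -0.65 (limma unadjusted p = 4.3e-05, adjusted p = 0.533). Its elevated pressure over control ratio was 0.575, 0.586, 0.563, 0.434 and 0.547 in numbers 1 to 5, while the interferon score differed by 0.04, -0.23, -0.97, -0.43 and -0.05. No other chemokine had all 5 numbers in 1 direction. With the random replicate block the unadjusted p of Cxcl10 was 0.0498.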
